A study of Mus musculus with 6 samples.

Results

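The cytoplasmic dynein 1 and dynactin genes considered here are Dync1h1, Dync1i1, Dync1i2, Dync1li1, Dctn1, Dctn2, Dctn3, Dctn4, Dctn5 and Dctn6. They were chosen by symbol, and every non-control array probe whose transcript accession belongs to one of the 10 symbols was used, which gave 15 of 41174 probes. All 15 passed the filter on dim probes and were tested among 26248 probes. Dctn5 has 3 probes, Dctn4, Dync1h1 and Dync1i2 have 2 each, and the other 6 genes have 1 each. Probes of one gene share the target and are not independent.

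Cytoplasmic dynein 1 is the motor that moves cargo toward the minus ends of microtubules. In an axon this carries endosomes, autophagosomes and injury signals from the terminal back to the cell body. Dynactin is a multi-subunit partner that joins dynein to cargo adaptors and keeps the motor on its track. Sensory neurons of the dorsal root ganglia, with very long axons, are known to be sensitive to loss of function of this machinery. A neuronal form of dystonin has been reported to bind dynactin.

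RNA was measured in dorsal root ganglia of mice of the C57BL/6 background at postnatal day 4, an age that the series places before the phenotype. The 3 wild-type (WT) animals were littermate controls, and the 3 dt27J animals are mutant for Dst, which encodes the cytoskeletal linker dystonin. The animals came from 2 litters, and each was hybridised to 1 single-colour array. WT 1, WT 2, dt27J 1 and dt27J 2 carry the first date of the labels and WT 3 and dt27J 3 the second, and each date has its own slide. The sources used here do not give the zygosity of the dt27J animals or tie the dates to the litters.

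Values are log2 signals relative to the 75th percentile of each array, so they compare a probe between arrays and not one gene with another. A difference is the dt27J value minus the WT value, in log2 units, tested with limma with the date as a block, and a probe was called at an adjusted p under 0.05 over all tested probes. Dst fell on all 3 of its tested probes, with differences of -2.68, -2.42 and -2.46 (adjusted p = 0.0341, 0.0376 and 0.0454, limma). Of the sensory neuron markers 12 of 12 were well above background on all 6 arrays, as were 9 of 9 measured Schwann cell markers. The same held for 9 of 9 skeletal muscle and 6 of 6 fibroblast markers, so detection alone does not identify the tissue. Some arrays stood apart in other tissues. The mean level of 9 spinal cord markers was -1.73 (WT 1) and -1.84 (WT 2), against -5.29 to -5.01 on the other 4 arrays. Among them Slc32a1, the vesicular transporter of inhibitory neurons, had values of 2.38 (WT 1) and 1.88 (WT 2), against -5.27 to -2.67 elsewhere. Not every marker of the list showed this gap. On WT 1, WT 2 and WT 3 Chat stood at -4.87, -4.46 and -4.79 and Mnx1 at -6.52, -5.82 and -6.57. Opalin, a marker of mature oligodendrocytes, was well above background on no array. The mean of 9 skeletal muscle markers was -1.21 (WT 1) and -1.13 (WT 2), against 0.69 to 1.76 on the other arrays.

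No dynein or dynactin probe passed the test over all 6 arrays, although all 15 lay lower in dt27J. The count was 0 of 15 lower and 0 of 15 higher, beside 1.88% of all tested probes called lower and 1.31% called higher by limma (3.19% in all). At an unadjusted p under 0.05 it was 5 of 15 lower and 0 higher, beside 15.7% and 12% of all probes (27.7% in all). A negative difference was found for 53.6% of all tested probes. With the brightest probe of each gene the 10 genes had a median of -0.62. The median was -0.031 over all named genes by their brightest probe and -0.050 over all tested probes. On 6 of 15 probes all 3 dt27J arrays lay below all 3 WT arrays, beside 16% of all probes. The count of called probes depended on which array was left out. It stayed at 0 of 15 without WT 1, WT 2, dt27J 1 or dt27J 2, beside 0%, 0%, 0% and 0.491% of all probes. Without WT 3, and likewise without dt27J 3, the comparison rests on the first date and 8 of 15 probes were called lower, beside 13.4% and 13.1% of all probes. The WT arrays of that date, WT 1 and WT 2, are those with high spinal cord and low muscle marker means. The part of this in the calls was not tested. Quantile normalization, the authors' values, no date block and the scaling to neuron markers described further on each called 0 of 15 lower, beside 1.68%, 2.14%, 0.0229% and 1.22% of all probes. Restricting the test to probes well above background on all arrays called 1, beside 1.87%, and normexp with high local backgrounds replaced, which was added with the data in view, called 2, beside 3.11%. The first date alone called 8, beside 13.3%, and array weights called 10, beside 24.5%.

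**Figure D1:**
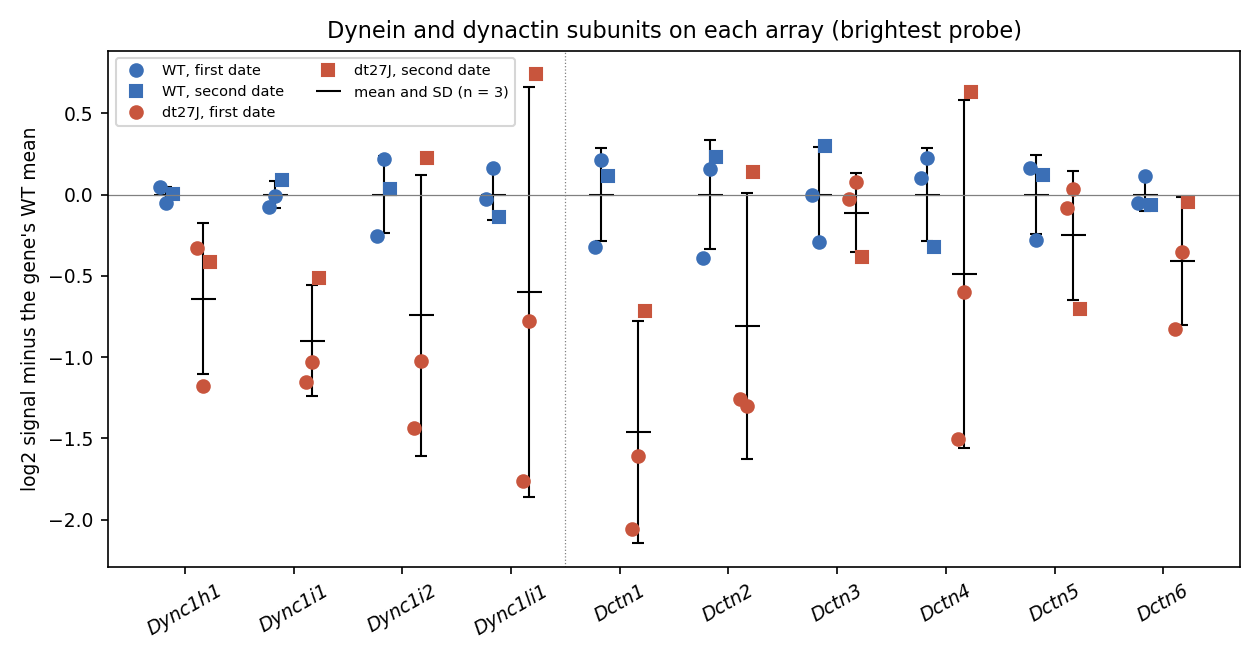
Log2 signal of the brightest probe of each gene minus that gene's WT mean (vertical axis), with dynein genes left of the dotted line and dynactin genes right of it; circles are arrays of the first date, squares of the second, and black bars are mean and SD over 3 arrays. On 8 of 10 genes both first-date dt27J arrays lie below every WT array, while dt27J 3 lies below them on 5 genes and above them on 3.

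Dync1h1 encodes the heavy chain, the motor subunit itself. Its bright probe stood at 5.50, 5.41 and 5.46 on WT 1, WT 2 and WT 3 and at 5.13, 4.28 and 5.04 on dt27J 1, dt27J 2 and dt27J 3. The WT arrays lay close together, all dt27J arrays lay below them, and dt27J 2 was the lowest. The means were 5.46 ± 0.05 and 4.82 ± 0.47 (SD, n = 3 each), a difference of -0.64 (SE 0.27, adjusted p = 0.180, limma), or 64.2% of the WT signal with a 95% interval of 41.2% to 99.9%. Its dim probe stood at -3.44, -3.71 and -3.52 in WT and at -5.84, -5.14 and -3.99 in dt27J. That probe was well above background on 2 of 3 dt27J arrays, dt27J 1 being the exception, and the difference of -1.43 (SE 0.36, adjusted p = 0.0684, limma) did not pass. The size of the gap on the dim probe depended on the background handling. It was -0.32 with normexp, -0.39 with replaced backgrounds and -0.58 with the authors' values, where the bright probe stood at -0.49, -0.61 and -0.59.

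The intermediate chains hold the dynein complex together and bind Dctn1 of dynactin. Dync1i1 is expressed mainly in neurons, while Dync1i2 is found in most cell types. Dync1i1 stood at 4.74, 4.81 and 4.91 in WT 1, WT 2 and WT 3 and at 3.67, 3.79 and 4.31 in dt27J 1, dt27J 2 and dt27J 3. The genotypes did not overlap, and dt27J 3 was the nearest of the mutants to WT. The means were 4.82 ± 0.08 and 3.92 ± 0.34 (SD, n = 3 each), a difference of -0.90 (SE 0.20, adjusted p = 0.0578, limma), or 53.6% of the WT signal with a 95% interval of 38.6% to 74.6%.

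Dync1i2 stood at 4.64, 5.11 and 4.93 in WT and at 3.46, 3.87 and 5.12 in dt27J on its bright probe. Here dt27J 1 and dt27J 2 lay below every WT array and dt27J 3 lay above them all. The difference was -0.74 (SE 0.34, adjusted p = 0.213, limma). The dimmer probe showed the same order, with -0.56, -0.01 and -0.51 in WT and -1.52, -1.42 and 0.59 in dt27J. Its difference over all arrays was -0.42 (SE 0.47, adjusted p = 0.588, limma), and the probes of Dync1i2 correlated at r = 0.92 over the 6 arrays.

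Dync1li1 encodes a light intermediate chain, the part of dynein that cargo adaptors grip. It stood at 0.72, 0.92 and 0.61 in WT and at -1.01, -0.03 and 1.49 in dt27J. As for Dync1i2, the first-date mutants were the lowest arrays and dt27J 3 was the highest. The SD was 0.15 in WT and 1.26 in dt27J, and the difference of -0.60 (SE 0.49, adjusted p = 0.461, limma) lay within that spread.

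Dctn1 encodes the largest dynactin subunit, which binds both microtubules and the dynein intermediate chains, and it had the lowest p of the 10 genes. Its probe stood at 4.05, 4.58 and 4.49 in WT 1, WT 2 and WT 3 and at 2.31, 2.76 and 3.65 in dt27J 1, dt27J 2 and dt27J 3. All dt27J arrays lay below all WT arrays, and dt27J 3 lay between dt27J 2 and WT 1. The means were 4.37 ± 0.29 and 2.91 ± 0.68 (SD, n = 3 each), a difference of -1.46 (SE 0.29, adjusted p = 0.0519, limma), or 36.3% of the WT signal with a 95% interval of 22.3% to 59.0%. It lay just short of the threshold, and over the 17 alternatives the adjusted p ran from 0.00126 to 0.246, with 6 of them past it. Among those 6, the fits without WT 3, without dt27J 3 and on the first date only all gave -1.78. They rest on the same first-date comparison and are not separate.

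Dctn2, or dynamitin, and Dctn3 form the shoulder that ties the projecting arm of dynactin to its filament. Dctn2 stood at 3.48, 4.03 and 4.10 in WT and at 2.61, 2.57 and 4.01 in dt27J, so the first-date mutants were low and dt27J 3 lay within the WT range. The difference was -0.81 (SE 0.29, adjusted p = 0.137, limma). Dctn3 showed no such pattern, with 6.46, 6.18 and 6.77 in WT, 6.44, 6.54 and 6.08 in dt27J and a difference of -0.11 (95% interval -0.70 to 0.48, adjusted p = 0.795, limma). The sign of the Dctn3 difference turned within the first date, after normexp background correction, with array weights and relative to the sensory neuron markers.

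Dctn4, Dctn5 and Dctn6 form the pointed end of the dynactin filament together with the actin-related protein Actr10. The bright Dctn4 probe stood at 3.01, 3.13 and 2.58 in WT and at 1.41, 2.31 and 3.54 in dt27J, again with dt27J 3 as the highest array and the first-date mutants as the lowest. Its difference of -0.49 (SE 0.48, adjusted p = 0.535, limma) lay within the spread between arrays, and the dim probe also stood at -0.49 (SE 0.32). The dim probe moved to -0.14 with normexp, -0.12 with replaced backgrounds and -0.16 with the authors' values.

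Dctn6 stood at 4.16, 4.32 and 4.15 in WT and at 3.38, 3.86 and 4.16 in dt27J, and dt27J 3 lay within the WT range. The difference was -0.41 (SE 0.24, adjusted p = 0.314, limma). The 3 probes of Dctn5 did not agree on which mutant was low. On the brightest, WT stood at 4.41, 3.97 and 4.37 and dt27J at 4.16, 4.28 and 3.54, so that dt27J 3 was the lowest array. On the other probes the genotypes did not overlap and dt27J was the lower, at -0.46 (SE 0.19, adjusted p = 0.183, limma) and -0.22 (SE 0.18, adjusted p = 0.455, limma), and the brightest probe correlated with them over the 6 arrays at r = 0.11 and 0.23.

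The genotype difference was also taken within each date. Within the first date, with 2 arrays per genotype, the median over the 10 genes was -1.11. It was 0.028 over all named genes by their brightest probe and -0.0079 over all tested probes. The second date has 1 array of each genotype, so no test. There the median was -0.26, beside -0.15 over all named genes and -0.13 over all probes. At least 2-fold lower within the first date were 8 of 15 probes, beside 9.84% of all probes, and 0 of 15 within the second date, beside 8.92%.

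By the brightest probe the genes fell into 3 patterns. Dctn1, Dync1i1, Dync1h1 and Dctn2 had a negative difference in both dates, at -1.78 and -0.83 for Dctn1, -1.05 and -0.60 for Dync1i1, -0.75 and -0.42 for Dync1h1 and -1.17 and -0.09 for Dctn2. Dync1li1, Dync1i2, Dctn4 and Dctn6 were negative within the first date and positive within the second, from -1.34 to 0.88 for Dync1li1 and from -1.21 to 0.96 for Dctn4. Dctn3 and Dctn5 were the reverse, at 0.17 and 0.036 within the first date and -0.68 and -0.83 within the second. The other Dctn5 probes did not show this and were negative in both dates, at -0.48 and -0.42 and at -0.20 and -0.28. Over all probes tested, 32.3% were negative in both dates and 18.2% negative within the first and positive within the second. The difference between dates was tested as an interaction, and 0 of 15 probes passed, beside 0.831% of all probes. At an unadjusted p under 0.05 there were 7 of 15, beside 27.5% of all probes. The lowest adjusted p was 0.0607 for the dimmer Dync1i2 probe, where the second date stood 2.29 above the first (SE 0.42, limma). It was 0.0895 for Dctn4 (2.17, SE 0.55) and 0.0956 for Dync1li1 (2.22, SE 0.59, limma). The date itself, whatever the genotype, called 0 of 15 probes, beside 0.107% of all probes, with 1 of 15 at an unadjusted p under 0.05, beside 15.3%.

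**Figure D2:**
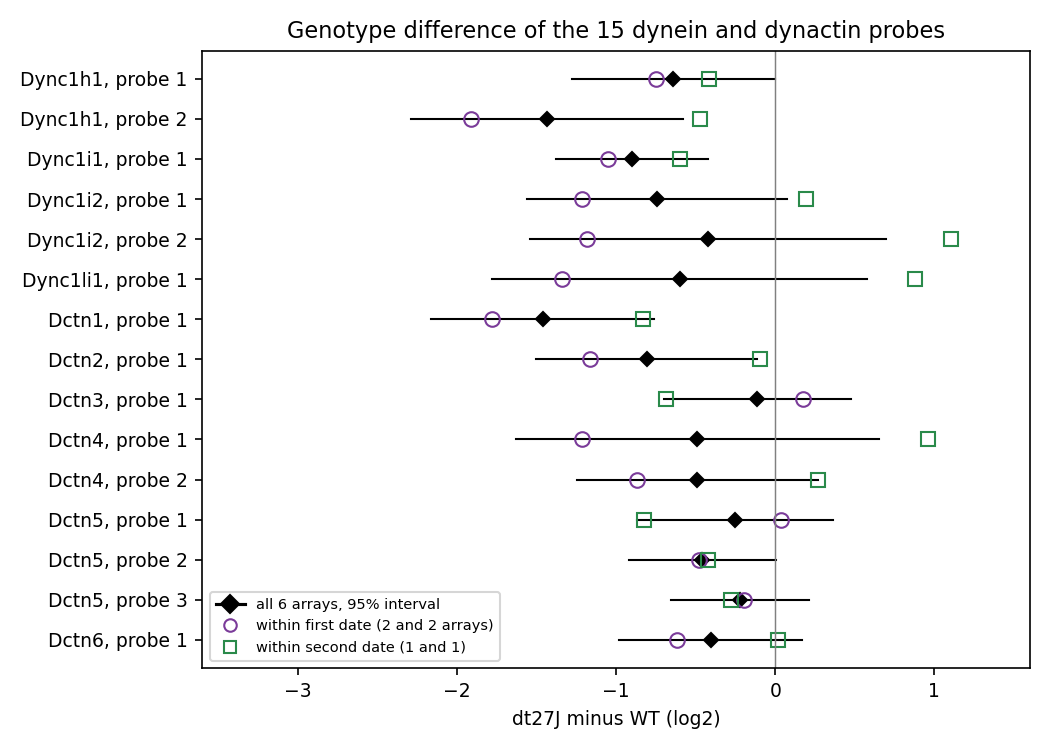
Difference dt27J minus WT (log2, horizontal axis) for each of the 15 probes, numbered within a gene from the brightest; diamonds and lines are the estimate over 6 arrays with its 95% interval, open circles the first date and open squares the second. The second-date value lies right of the first-date value on 12 of 15 probes, and for Dync1i2, Dync1li1 and Dctn4 it lies above 0.

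The mutants also varied more among themselves than the controls on most of these genes. The SD was larger in dt27J than in WT for 9 of 10 genes, beside 67.1% of all tested probes, with medians of 0.57 and 0.24. Over all tested probes the median SD was 0.36 in dt27J and 0.24 in WT. Dctn3 was the exception, with an SD of 0.24 in dt27J and 0.29 in WT. On the array dt27J 1, 8 of 10 genes lay below every WT array, 8 on dt27J 2, and 5 on dt27J 3. No gene lay above every WT array on dt27J 1 or dt27J 2, and 3 did on dt27J 3. Over all tested probes 37.5%, 34.7% and 40.8% lay below every WT array on dt27J 1, dt27J 2 and dt27J 3, and 36.1%, 35.3% and 29.5% lay above, so the 3 genes above on dt27J 3 are near the share of all probes.

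Over the 6 arrays the members that varied most alike were Dctn4 with Dync1li1 (r = 0.99), Dctn1 with Dync1i1 (r = 0.98) and Dctn2 with Dync1i2 (r = 0.97), and Dctn3 with Dctn5 stood at r = 0.87. The lowest value was that of Dctn3 with Dctn4 (r = -0.53). All 45 pairs share the same 6 arrays, their scaling and their tissue make-up, so these values describe the arrays and carry no test. The genes of the array most like Dctn1 in their pattern were Kcnab2, a potassium channel beta subunit, Phf24, the neuronal RNA-binding protein gene Elavl4, Grina and Nckipsd, with r between 0.998 and 0.999 over the 6 arrays. Each gene was taken by its probe with the highest r. For Elavl4 that was a dimmer probe, and on its brighter probe dt27J 3 (4.32) and dt27J 1 (4.34) were the lowest arrays. As many as 691 other probes reached r above 0.95 with Dctn1. Dync1h1 was most like Tmem150a, Idh3b, which encodes a subunit of a mitochondrial dehydrogenase, Zmynd19, Slc38a10 and Fam53b, with r between 0.984 and 0.991, and 45 other probes reached 0.95.

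Promoter windows from RefSeq (build GRCm38.p6, 250 bases before to 50 after a start) were found for 8 of the 10 genes. Those of Dctn1 and Dync1i1 are printed beside those of Dync1h1 and Dync1li1, because their base composition differs. By the brightest probe Dync1h1 was lower in both dates, as were Dctn1 and Dync1i1. A link between base composition and the differences was not tested. Capitals mark any match, on either strand, to 1 of 7 motifs, which may overlap. The GC box was searched as GGGCGG and the CCAAT box by the letters of its name. ETS factor sites were searched as CCGGAAG and the core of the cyclic AMP response element (CRE) as TGACG. The TATA box was searched as TATAAA, the site of the factor YY1 as AAGATGGC and part of the neuronal silencer RE1 as TTCAGCACC.
Dctn1 promoter, chr6:83179339-83179638, plus strand: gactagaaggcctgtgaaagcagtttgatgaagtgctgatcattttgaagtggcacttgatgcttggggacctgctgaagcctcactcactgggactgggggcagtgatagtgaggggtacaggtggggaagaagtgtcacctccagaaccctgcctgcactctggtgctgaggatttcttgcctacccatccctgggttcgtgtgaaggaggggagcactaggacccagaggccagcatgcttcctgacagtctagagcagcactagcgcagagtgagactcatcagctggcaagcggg
Dctn1 promoter, chr6:83185696-83185995, plus strand: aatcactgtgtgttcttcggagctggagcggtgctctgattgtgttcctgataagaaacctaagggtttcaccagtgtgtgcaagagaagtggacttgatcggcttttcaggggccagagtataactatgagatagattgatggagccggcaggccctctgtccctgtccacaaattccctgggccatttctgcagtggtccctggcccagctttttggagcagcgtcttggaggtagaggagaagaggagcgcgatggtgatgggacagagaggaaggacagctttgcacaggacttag
Dync1i1 promoter, chr6:5725389-5725688, plus strand: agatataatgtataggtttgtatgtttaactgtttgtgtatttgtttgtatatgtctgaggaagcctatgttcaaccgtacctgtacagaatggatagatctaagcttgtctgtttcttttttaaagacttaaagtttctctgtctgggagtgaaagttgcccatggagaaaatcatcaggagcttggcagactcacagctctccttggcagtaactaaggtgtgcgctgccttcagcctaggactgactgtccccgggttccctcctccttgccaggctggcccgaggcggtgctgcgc
Dync1h1 promoter, chr12:110601145-110601444, plus strand: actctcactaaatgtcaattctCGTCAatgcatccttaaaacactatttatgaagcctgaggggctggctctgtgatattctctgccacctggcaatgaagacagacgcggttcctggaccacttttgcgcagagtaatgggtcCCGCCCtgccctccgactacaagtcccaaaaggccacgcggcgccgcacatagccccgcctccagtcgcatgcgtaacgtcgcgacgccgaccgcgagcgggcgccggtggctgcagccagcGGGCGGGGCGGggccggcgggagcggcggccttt
Dync1li1 promoter, chr9:114688581-114688880, plus strand: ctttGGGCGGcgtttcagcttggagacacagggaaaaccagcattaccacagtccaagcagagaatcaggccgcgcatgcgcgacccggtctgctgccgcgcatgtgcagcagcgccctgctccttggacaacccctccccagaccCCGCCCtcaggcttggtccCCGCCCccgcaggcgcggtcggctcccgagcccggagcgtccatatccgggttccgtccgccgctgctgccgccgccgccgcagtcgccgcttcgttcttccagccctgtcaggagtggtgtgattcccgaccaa

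Neither Dctn1 window nor the Dync1i1 window held any of these motifs. They had 3, 7 and 6 CpG dinucleotides and a GC content of 56%, 52.7% and 46.7%, and the median over all 32851 windows of the table was 7 with a median GC content of 52.7%. The Dync1h1 window had 30 CpG dinucleotides, a GC content of 62.3%, 3 GC boxes and the CRE core, and the Dync1li1 window had 31 CpG dinucleotides, a GC content of 68% and 3 GC boxes. A GC box stands in 35.7% of all windows and in 5 of the 10 windows of these genes. CCAAT stands in 37.4% of all windows and in 3 of the 10, the CRE core in 20.8% and 2, the ETS letters in 8.86% and 1, and the YY1 letters in 2.75% and 1. None of the 10 held TATAAA, which 13.6% of all windows hold, or the RE1 letters, which 0.371% hold. These are letter matches only, and the array says nothing of which start was used.

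The remaining subunits of both complexes lay on both sides of 0. Of 16 listed, 13 had a tested probe, and 0 passed in either direction, with 1 lower and 2 higher at an unadjusted p under 0.05 (14.8% and 12.8% of all named genes by their brightest probe), a negative difference for 8 and a median of -0.19. Dync1li2, the other light intermediate chain, stood higher, with -0.13, -0.09 and -0.25 in WT and 1.05, 1.14 and 0.38 in dt27J on its brightest probe. There all dt27J arrays lay above all WT arrays, by 1.01 (SE 0.21, adjusted p = 0.0530, limma), within the first date by 1.21 and within the second by 0.63. Its other probes stood at -0.07 and -0.05 and did not show this. Actr1a, the actin-related protein that forms the dynactin filament, stood at -0.51 (SE 0.21, adjusted p = 0.169, limma), and all its dt27J arrays lay below all WT arrays. Its paralogue Actr1b stood at -1.01 (SE 0.45), with -1.71 within the first date and 0.40 within the second. Actr10 (-0.07, SE 0.27), the capping subunit Capzb (0.06, SE 0.20) and the light chain Dynll1 (0.05, SE 0.26) stood close to 0 over all arrays, with an interval of -0.71 to 0.58 for Actr10. For Actr10 and Dynll1 these values average opposite differences within the dates. Actr10 stood at 0.29 within the first and -0.79 within the second, and Dynll1 at 0.39 and -0.62. The other capping subunits stood at 0.26 for Capza2 (SE 0.20) and at 0.83 for Capza1 (SE 0.28, adjusted p = 0.119, limma). Dynlt1b has near-identical copies in the mouse genome, so its value (-0.22, SE 0.50) may mix their signals. Within the first date Dynlt1b stood at 0.62 and within the second at -1.89.

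Among adaptors and regulators 1 gene was called by its brightest probe. Of 24 listed, 23 had a tested probe, and by the brightest probe 0 were called lower and 1 higher, beside 1.52% and 1.35% of all named genes. At an unadjusted p under 0.05 there were 6 lower and 5 higher, beside 14.8% and 12.8%, and the median was -0.26. The called gene was Spdl1, which encodes the adaptor that brings dynein to kinetochores in dividing cells. Its probe stood at -4.12, -4.39 and -3.64 in WT and at -2.88, -2.93 and -2.19 in dt27J, all well above background. It rose by 1.38 (SE 0.19, adjusted p = 0.0413, limma), and by 1.35 and 1.45 within the dates. The probe is dim, and its difference was 0.33 with normexp (adjusted p = 0.339, limma) and 0.53 with replaced backgrounds (adjusted p = 0.0942, limma). The call was also lost without WT 1, WT 2, dt27J 1 or dt27J 2 (adjusted p = 0.244, 0.157, 0.179 and 0.0764, limma), and over the 17 alternatives it held under 8. Nde1, a dynein regulator with a known part in dividing progenitors, stood at 0.99 (SE 0.21, adjusted p = 0.0568, limma), while its neuronal relative Ndel1 stood at -0.26 (SE 0.27). Pafah1b1, the gene of the dynein regulator Lis1, stood at 5.28, 4.79 and 5.02 in WT and at 4.33, 4.10 and 4.46 in dt27J, a difference of -0.73 (SE 0.22, adjusted p = 0.0959, limma). The axonal adaptor genes Mapk8ip3 (-0.70, SE 0.23, adjusted p = 0.115, limma) and Hap1 (-0.74, SE 0.23, adjusted p = 0.104, limma) likewise showed no overlap, with dt27J the lower. By the brightest probe all dt27J arrays lay below all WT arrays for 6 genes and above them for 7. This was so for 2232 and 1865 of 13675 named genes, and for 16% and 12.8% of all tested probes. Bicdl2 was also among the lower (-1.10, SE 0.26, adjusted p = 0.0618, limma). Nin (0.72, SE 0.19, adjusted p = 0.0716, limma) and Hook3 (0.82, SE 0.34, adjusted p = 0.177, limma) were among the higher. The probes of Trak2, which encodes a mitochondrial adaptor, disagreed, at 1.03 on the brighter (adjusted p = 0.0556, limma) and -1.32 on the dimmer. The dimmer probe passed the test (adjusted p = 0.0472, limma), but stood at -0.21 with normexp (adjusted p = 0.528, limma) and held its call under 5 of the 17 alternatives. For Spdl1 and Trak2 alike, these counts take the first-date comparison more than once.

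**Figure D3:**
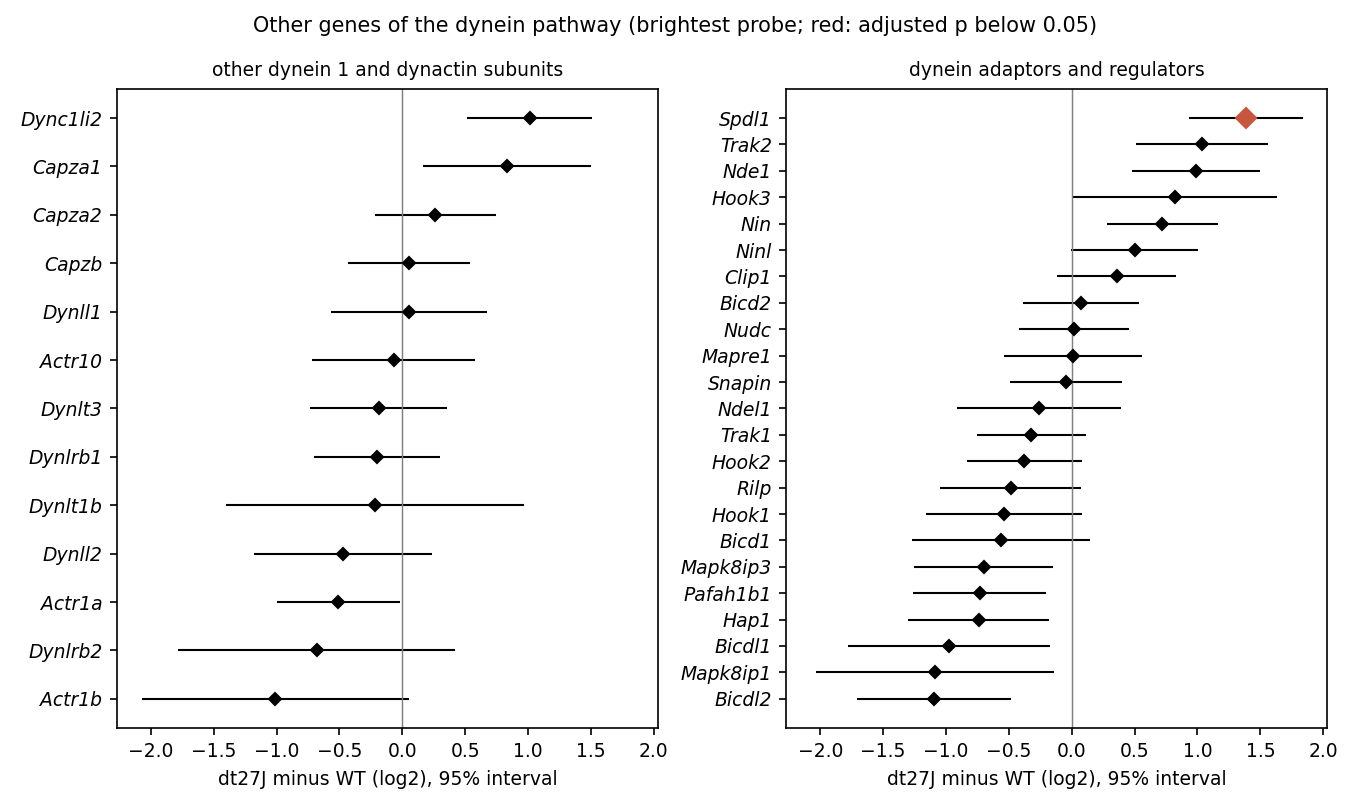
Difference dt27J minus WT (log2, horizontal axis) with its 95% interval for the other subunits (left) and for adaptors and regulators (right), by the brightest probe of each gene over 6 arrays. Spdl1, in red, is the 1 gene past an adjusted p of 0.05 by its brightest probe, and Dync1li2 stands highest among the subunits at 1.01.

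Marker lists of the cell types moved between arrays as well. The mean of 12 sensory neuron markers was 4.45, 4.42 and 4.60 on WT 1, WT 2 and WT 3 and 3.52, 3.79 and 4.12 on dt27J 1, dt27J 2 and dt27J 3, so it was lower on every mutant array and least so on dt27J 3. The 10 dynein and dynactin genes had mean deviations from their own 6-array means of 0.24, 0.37 and 0.36 on the WT arrays and -0.72, -0.46 and 0.22 on the dt27J arrays. Of the 12 neuron markers 11 had a negative difference, and Snap25 was the exception. In bulk ganglia fewer neurons, less RNA per neuron and a larger share of RNA from other tissues cannot be told apart. Taken relative to the mean of these neuron markers on each array, a scaling chosen after the data were seen that lifts the median of all tested probes to 0.63, the 10 genes had a median of 0.061. Dctn1 then stood at -0.78 (SE 0.28, adjusted p = 0.0588, limma), Dync1i1 at -0.22, Dync1h1 at 0.041, and 4 of 10 genes were negative.

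Endothelial markers were higher on every mutant array, between 0.29 and 0.99 against -0.56 to -0.10 in WT. Fibroblast markers stood at 5.42, 5.26 and 6.07 in WT and at 6.82, 6.91 and 5.86 in dt27J, a difference of 1.53 within the first date and -0.21 within the second. The lists of satellite glia and Schwann cells differed by 0.38 and 0.32. Muscle markers differed by 2.39 within the first date and 0.83 within the second, and spinal cord markers by -3.40 and -0.0071. On WT 3, where the spinal cord list stood at -5.01, the mean deviation of the dynein and dynactin genes was 0.36. The part of neuronal, glial, endothelial, fibroblast, muscle and spinal cord RNA in these differences was not tested.

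**Figure D4:**
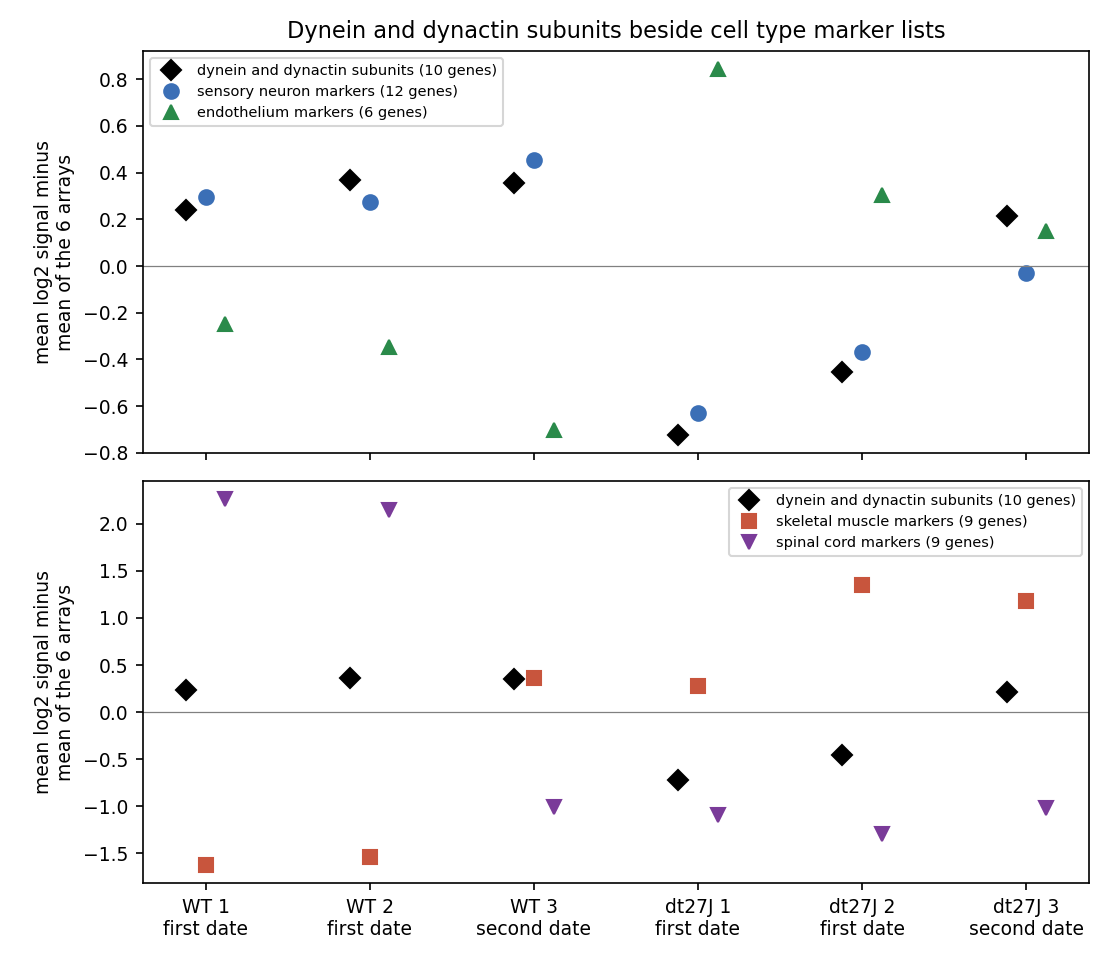
Mean log2 signal of the 10 dynein and dynactin genes and of marker lists on each array, as the deviation from the mean of the 6 arrays (vertical axis); the upper panel shows neuron and endothelium markers, the lower panel skeletal muscle and spinal cord markers. The dynein and dynactin genes lie at -0.72 and -0.46 on dt27J 1 and dt27J 2 and at 0.22 on dt27J 3, and the spinal cord list is high on WT 1 and WT 2.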

How the data were processed

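Per the labels' protocols, total RNA of 6 samples was labelled with Cy3 for 1-colour arrays. The processed signals the authors deposited are linear intensity values, background-subtracted and detrended within the array by Agilent Feature Extraction 10.5.1.1, per the file headers; the submitters' processing notes name the same version. A value table from the authors is on a log2 scale and centred on each probe's median; the sources used here name no normalization for it. Here log2 processed signals were set against each array's 75th percentile (signal 369.5 to 580), control and outlier spots were left out, and repeated spots averaged. A probe was tested if well above background on all arrays of a genotype. Accessions were named through a RefSeq table (GRCm38.p6), 24844 of 41174 probes, and the files use mm9. Genotype and date were fitted with limma 3.58.1 in R 4.3.3 with Benjamini-Hochberg adjustment (3 residual and 3.74 prior degrees of freedom), and the fits were tested on simulated data. Each array holds 1 animal, and 3 arrays per genotype limit the precision. Every probe of the 10 genes is named; the likeness rule takes the 5 named genes with the highest r. The members and lists were chosen with earlier results of these data known, and lists are described by counts and medians. Alternatives covered normalization, background, filters, blocks, weights and single arrays.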

Additional observations from a re-analysis of the deposited data

How the results depend on the processing

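No probe of these genes was called higher under any of the 17 alternatives. The 0 called lower became 1 with probes well above background on all arrays, beside 1.87% of all probes called lower. It became 2 with normexp and replaced local backgrounds, beside 3.11%. That setting was added with the data in view, as was the scaling to neuron markers. It became 8 within the first date only, beside 13.3%, and 10 with array weights, beside 24.5%. The weights gave WT 1 a weight of 67.4. Leaving out 1 array gave 0 to 8, the 8 without WT 3 or dt27J 3, beside 13.4% and 13.1%. Replicate numbers do not pair the arrays (same-numbered deviations correlated at 0.22, -0.15 and 0.062); with the replicate block 0 of these probes and 2 of all probes were called. The 838 calls over all probes (494 lower) became 355 with normexp (95 lower; 1422 with replaced backgrounds), 0 without the filter (8485 at an unadjusted p under 0.05), 14 without the date block (6 lower), 6860 on the first date only, 12199 with array weights, 8973 relative to the neuron markers (319 lower and 8654 higher), and 0 to 6833 leaving out 1 array. The median of -0.62 was -1.11 within the first date, by fit or as a value, 0.061 relative to the neuron markers and -1.11 to -0.40 leaving out 1 array. Dctn3 turned to 0.019 with normexp, 0.0014 with array weights and 0.17 within the first date, where Dctn5 turned to 0.036; leaving out 1 array they ran from -0.28 to 0.17 and from -0.46 to 0.036. Relative to the neuron markers Dctn3 stood at 0.57, Dctn4 at 0.19 on both probes, Dctn5 at 0.43, 0.22 and 0.46, Dctn6 at 0.27, Dync1h1 at 0.041, the dimmer Dync1i2 probe at 0.26 and Dync1li1 at 0.081. Differences of Dctn1 and Dync1i1 stayed negative throughout, and passed under 6 and 5 alternatives. Those of Dctn2, the bright Dync1i2 probe and, wherever it was tested, the dim Dync1h1 probe also stayed negative, and passed under 4 each. These counts take the first-date comparison more than once, because leaving out WT 3 or dt27J 3 gives the same estimate as the first date only. Apart from the construction of each alternative, the cause was not tested.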

Other observations

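Motors that move cargo outward along the axon showed no called gene by their brightest probes, beside 1.52% of all named genes called lower and 1.35% higher. All 11 stood lower in dt27J, with a median of -0.32, where 52.4% of all named genes had a negative difference. At an unadjusted p under 0.05 (limma) 3 were lower and 0 higher, beside 14.8% and 12.8% of all named genes. Klc2, a kinesin light chain, stood at -1.35 (SE 0.28, adjusted p = 0.0526, limma), Kif5c, a neuronal kinesin heavy chain, at -0.62 (SE 0.23, adjusted p = 0.145, limma) and Kif5a at -0.49 (SE 0.20, adjusted p = 0.177, limma). The dimmer Kif5a probe was called, at -1.79 (SE 0.31, adjusted p = 0.0472, limma), and it was chosen after its values were seen. With normexp that probe stood at -0.96 (adjusted p = 0.0824, limma). It held its call under 9 of 17 alternatives, which count the first-date comparison more than once. Within the first date the 11 genes had a median of -0.49 and within the second of -0.15. Of the 11, 6 were negative in both dates, beside 4345 of 13675 named genes. Dynein 2, the motor of the cilium, stood above 0 for 3 of its 5 genes, with a median of 0.12 and 0 called by limma. At an unadjusted p under 0.05 there were 0 lower and 2 higher, beside 14.8% and 12.8% of all named genes. Wdr60 (0.49, SE 0.20) and Dync2li1 (0.48, SE 0.19) stood above 0 and Wdr34 (-0.31, SE 0.20) below. The dimmer Wdr60 probe stood at -0.04 (SE 0.45) and did not show the rise. Whether these lists differ from the dynein 1 and dynactin genes was not tested.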
